A study of Homo sapiens and Mus musculus with 92 samples.

Results

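Knockdown (KD) of AF9, the protein encoded by MLLT3, was examined in HEL cells, an established human erythroleukemia cell line, by RNA-seq of 4 libraries out of the 92 samples of the series. The members were taken from the counts of the AF9 experiment, which hold 2 control libraries of WT genotype and 2 AF9 KD libraries. The remaining samples profile MLL1, AF9 and chromatin in other experiments, and the MLL1 KD libraries had their own controls. The labels give the genotypes WT and AF9 knockdown, and the study's text names AF9 shRNA #1 as the reagent of the cells compared by RNA-seq, so 1 shRNA stands for the loss of AF9 in these libraries. By its general methods, the study used lentiviral pLKO.1 vectors with puromycin selection and a control shRNA. The labels do not say whether the 2 libraries of a group came from separate cultures, so p-values measure only the spread between these libraries, which may be technical. The question was which genes change when AF9 is depleted, and each change was read once from the raw counts alone and once after correction for the GC content of the genes.

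AF9 is a YEATS domain protein that reads acylated lysines on histone H3 and serves as a scaffold. It joins the super elongation complex (SEC), in which CDK9 and cyclin T phosphorylate RNA polymerase II and AFF and ELL proteins hold the complex together, and it also binds DOT1L, the histone H3 lysine 79 methyltransferase, and the Polycomb proteins CBX8 and BCOR. MLLT3 is best known as a fusion partner of MLL1 in acute leukemia and, as the intact gene, as a factor of blood stem cells and of erythroid and megakaryocytic cells.

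The shRNA defines what was targeted, so the sequences of AF9 shRNA #1 are shown first, read from the supplementary methods of the study and matched to the hg38 genome. Capitals mark bases 2 to 8 of the guide strand, the seed, and the 7 bases of the target that pair with them.
AF9 shRNA #1 target: ttcaaagcctcacAAATTAAt
AF9 shRNA #1 guide: aTTAATTTgtgaggctttgaa
The 21-base target lies on the minus strand of hg38 at chr9:20414247-20414267, inside the coding sequence in exon 5 of the 11 exons of the canonical GENCODE transcript of MLLT3, at base 822 of 6724. MLLT3 was the only gene whose canonical transcript held all 21 bases. Among the other genes tested the longest run shared with the target was 14 bases, in LUZP1, whose log2 fold change was 0.01 ± 0.10 (SE) and which was not called.

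MLLT3 fell to 18.6% to 21.2% of its control level. Its level, in CPM (read counts scaled to library size with TMM factors), was 548 and 528 in the control libraries and 107 and 92.6 in the AF9 KD libraries, so the groups were far apart. The log2 fold change was −2.43 ± 0.11 (SE, n = 2 against 2; 18.6% of control) without GC correction, with an adjusted p of 3.17e-08 by the quasi-likelihood test of edgeR, and −2.24 ± 0.08 (21.2% of control; edgeR adjusted p = 2.30e-08) with it. MLLT3 spans chr9:20341669-20622499 and its exons hold 38.3% GC. An exact permutation test of 2 against 2 cannot go below 0.333, so none is given for single genes.

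The libraries held 12278989 to 14232408 counts over 28103 gene symbols, and 13333 genes that reached an average of 1 TPM were tested. Replicate libraries differed by more than counting error but less than libraries of different groups, the chi-square of their counts divided by its degrees of freedom being 4.22 between the controls and 10.2 between the AF9 KD libraries against 25.6 to 38.7 between groups. The cells carried the markers of the line. Marker values are CPM of all counts, without TMM factors or GC correction. The 9 erythroid markers summed to 11100 and 11100 CPM in the controls and 9690 and 7910 CPM in AF9 KD. Most of each sum came from HBG1, HBG2 and HBE1. HBG1 was lower in both AF9 KD libraries (2972 and 3065 against 2266 and 1953 CPM), as were HBG2 and TAL1. KLF1 was higher (92.7 and 95.8 against 124 and 126 CPM), as were GATA1, EPOR and TFRC. Of 5 megakaryocyte markers 4 were present at a mean of at least 1 CPM, with GP1BB listed at 0. The 5 lymphocyte markers summed to at most 1.26 CPM in any library, with MS4A1 at 0. The 6 monocyte and neutrophil markers summed to 68.2 to 91.4 CPM, most of it LYZ (65.6 to 89.8 CPM). The 6 fibroblast and endothelial markers summed to 114 to 156 CPM, most of it PECAM1 (112 to 154 CPM). Of these lists CD14, ELANE and DCN had no count in any library, which allows up to 3 counts in each.

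Libraries differed by the GC content of the genes, also within a group. Over 13044 genes with a GC value (97.8% of those tested), the log2 difference between control 2 and control 1 had a Spearman rho of 0.43 with exon GC content, and that between AF9 KD 2 and AF9 KD 1 a rho of 0.40. Between groups rho was 0.41 for AF9 KD 1 and 0.60 for AF9 KD 2 against control 1, and 0.25 and 0.50 against control 2. These values describe genes that share the same 4 libraries, so no p is given. In the 6 libraries of the MLL1 experiment, for comparison, rho within a group was at most 0.14 in size and lay between −0.12 and 0.01 between groups. In the decile of genes with the highest GC content (60.7% and above), the median log2 difference was 0.29 between the controls, 0.22 between the AF9 KD libraries and 0.30 to 0.77 between AF9 KD and control libraries. What made the GC content of the libraries differ was not tested.

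**Figure D1:**
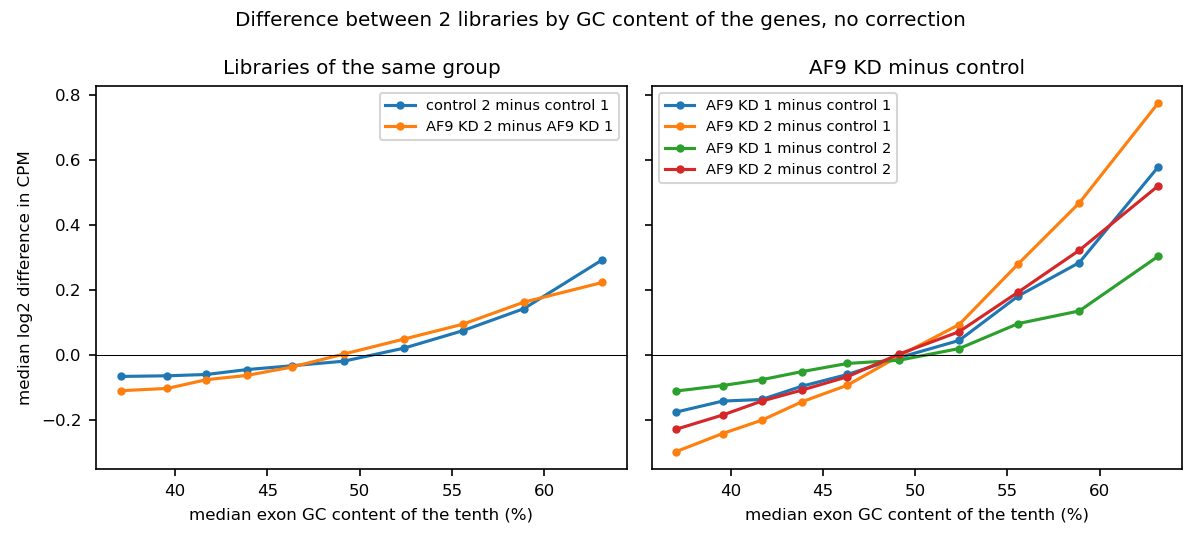
Median log2 difference in CPM between 2 libraries (vertical axis) in deciles of the genes tested, placed at their median exon GC content in percent (horizontal axis), before any correction. Left, the 2 pairs of libraries of the same group, which reach 0.29 and 0.22 in the most GC-rich decile. Right, the 4 pairs of AF9 KD and control libraries, which reach 0.30 to 0.77.

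Reading the data with and without GC correction changed which genes were called, above all among those that rose. A gene was called when its adjusted p (edgeR quasi-likelihood test, Benjamini-Hochberg over all genes tested) was under 0.05 and its fold change at least 1.5. Without correction 675 genes fell (5.06% of those tested) and 1069 rose (8.02%). After a lowess trend of each library with GC content was taken into the model, 569 fell (4.27%) and 495 rose (3.71%). Of the 675 falls 404 were called in both readings (59.9%), and of the 1069 rises also 404 (37.8%). Another 271 falls and 665 rises were called only without correction, and 165 falls and 91 rises only with it. No gene was called in opposite directions. The share of calls that were rises went from 61.3% to 46.5%, and scaling by total counts in place of TMM factors made it 76.4% without and 47.4% with correction. Without control 1, 557 genes rose without and 297 with correction, so the number of rises leaned on that library.

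The GC content of the called genes also differed between the readings. The median was 42.2% for falls and 60.1% for rises without correction, and 48.6% and 51.1% with it, against 47.6% over all genes with a value. In the decile of lowest GC content, 10.8% of genes fell and 1.23% rose without correction, and 4.29% and 2.38% with it. In the decile of highest GC content, 0.536% fell and 37.9% rose without, and 5.21% and 5.75% with it. Their median log2 fold change went from 0.58 to 0.02. The correlation of the fold change with GC content went from a rho of 0.48 to 0.01. The correction removes each library's trend with this same GC content, so a rho and decile medians near 0 after it follow from the method. Any effect of AF9 KD that goes with GC content would be removed too. Without and with correction, rho was −0.07 and 0.09 with exon length and −0.23 and −0.14 with mean log2 CPM. The 513 genes that rose only without correction and have a promoter sequence in RefSeq had a median of 32 CpG dinucleotides in the 300 bases around their start, against 26 in the 8345 genes called in neither reading. The median exon GC content of these 513 genes was 61.9%. The correction lowers GC-rich genes most, so a high exon GC content of rises lost to it follows from the method. Whether the CpG count of their promoters only goes with their exon GC content was not tested.

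**Figure D2:**
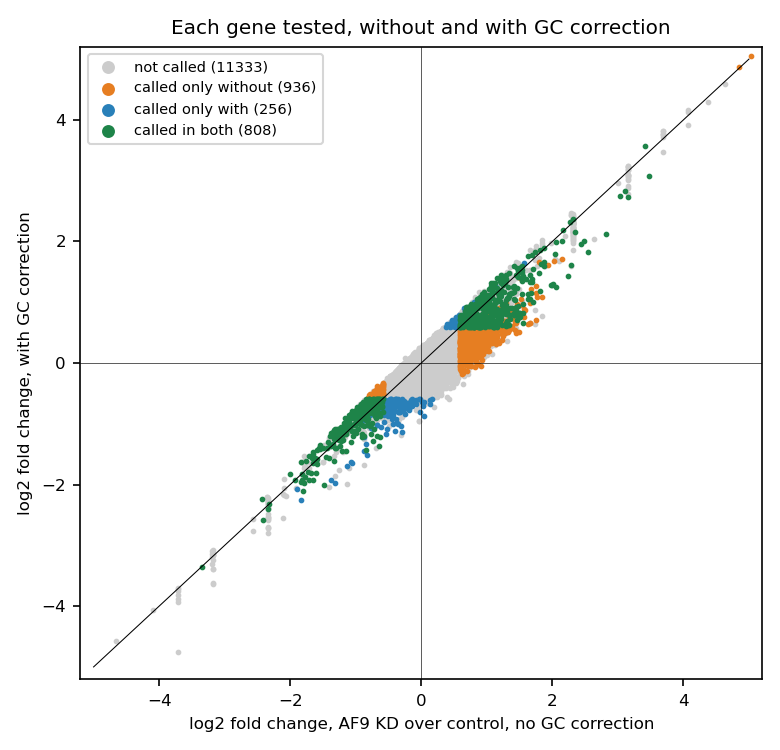
Log2 fold change of AF9 KD over control for every gene tested, without (horizontal axis) and with (vertical axis) GC correction, the diagonal marking equal values. The 665 rises called only without correction form a cloud on the right below the diagonal, and the 165 falls called only with it extend downward from the middle.

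The genes with the largest falls called in both readings formed a mixed group. It held the mast cell protease CPA3, the IL-33 receptor IL1RL1, the surface glycoprotein CD24, 3 metallothioneins (small zinc-binding proteins) and MSMO1, a sterol synthesis enzyme. The others were CREBRF, a regulator of the CREB3 transcription factor, HDDC2, a phosphohydrolase, and HIST1H1C, linker histone H1.2. CPA3, at chr3:148865296-148897203, was at 262 and 222 CPM in the controls and 57.4 and 63.4 CPM in AF9 KD (log2 −2.005 ± 0.11 without and −1.83 ± 0.10 with correction). CREBRF went from 45.4 and 46.3 to 11.9 and 13.7 CPM (log2 −1.84 and −1.63). CD24, which shares 14.7% of its 31-base words with transcripts of other genes, went from 57.5 and 65.5 to 16.3 and 18.5 CPM (log2 −1.82 in both readings).

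In each of these genes both AF9 KD libraries were below both controls, which the rule for naming the largest falls required. Of all genes tested 33.2% met that condition. HDDC2 was at 75.0 and 74.8 CPM against 22.1 and 22.2 CPM (log2 −1.76 and −1.61). HIST1H1C was at 95.9 and 107 against 29.1 and 32.7 CPM (log2 −1.71 and −1.92), read here in poly(A)-selected RNA. IL1RL1 was at 33.5 and 35.4 against 9.37 and 12.3 CPM (log2 −1.67 and −1.53). All 11 of these falls, MLLT3 among them, had edgeR adjusted p-values of at most 3.1e-05 in both readings and were still called when any 1 library was left out.

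The largest rises called in both readings split by GC content. SFXN3, a mitochondrial serine carrier, rose from 5.59 and 5.71 to 23.7 and 26.4 CPM (log2 2.15 ± 0.16 and 2.00 ± 0.14). STUM, a membrane protein named for a fly mechanosensory gene, lies at chr1:226548764-226609230 and rose from 44.03 and 41.4 to 131 and 149 CPM (log2 1.71 ± 0.10 and 1.54 ± 0.09). SFXN3 and STUM hold 54.6% and 55.3% GC and rose by much the same in both readings.

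The 6 other genes, of at least 63.6% GC, kept their call with a smaller log2 change. PIGQ, of GPI anchor synthesis, went from a log2 of 1.70 to 1.00, D2HGDH, a mitochondrial 2-hydroxyglutarate dehydrogenase, from 1.63 to 1.06, and the adhesion molecule LRFN4 from 1.56 to 0.65. CAPN15, a calpain, went from 1.56 to 0.82, TELO2, which stabilizes DNA damage kinases, from 1.51 to 0.82, and CHTF18, a clamp loader subunit, from 1.47 to 0.75. LRFN4 was at 3.49 and 7.14 CPM in the controls, which differed from each other, and at 12.2 and 18.7 CPM in AF9 KD. With correction the calls of LRFN4 (0.40), CAPN15 (0.65) and CHTF18 (0.62) were lost without control 1, and that of LRFN4 (0.47) also without AF9 KD 2. HSPA1B, also among the largest rises, is described with the heat shock genes.

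**Figure D3:**
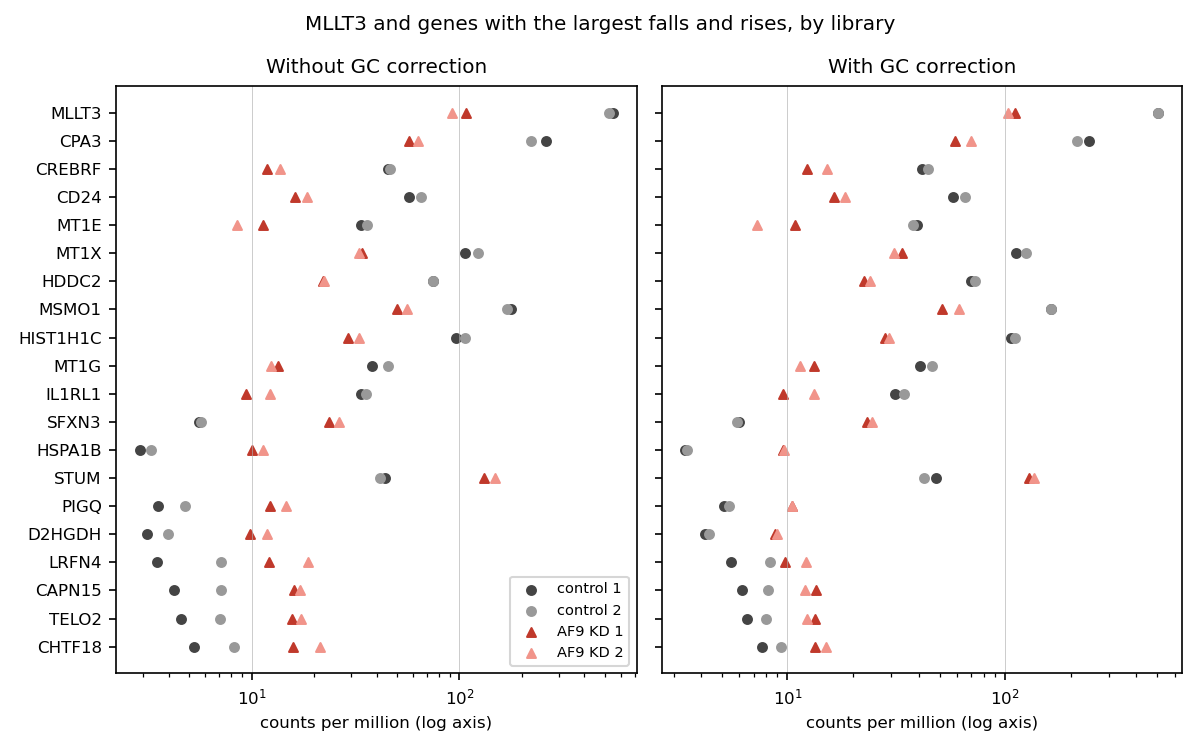
CPM on a log axis for MLLT3 and genes of the 10 largest falls and 10 largest rises, 1 row a gene, in control (circles) and AF9 KD (triangles) libraries, without (left) and with (right) GC correction. AF9 KD and control libraries do not overlap in any row of either panel, which in the left panel the rule for naming the falls and rises required. From PIGQ to CHTF18 the groups stand closer in the right panel.

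Among the partners of AF9 in elongation and H3K79 methylation, EAF1 and EAF2 fell with MLLT3. Of the 16 genes of the SEC and DOT1L complexes 15 were tested, 3 fell in both readings and none rose. These counts include MLLT3, the target of the shRNA. Over all genes tested, 5.06% fell and 8.02% rose without and 4.27% and 3.71% with correction. The median log2 fold change of the list, also with MLLT3, was −0.14 without and −0.17 with correction, against 0.01 over all genes in both. EAF1, a partner of the ELL elongation factors, was at 71.2 and 72.4 CPM in the controls and 37.7 and 39.5 CPM in AF9 KD (log2 −0.89 ± 0.10 and −0.80 ± 0.09; edgeR adjusted p = 8.1e-05 and 9.7e-05). EAF2 was at 35.5 and 29.0 against 18.4 and 16.6 CPM (log2 −0.88 ± 0.14 and −0.70 ± 0.12; edgeR adjusted p = 0.00065 and 0.0013). Its call with correction was lost without control 1 (−0.58). The AF9 homolog MLLT1 (ENL) was at 62.7 and 73.6 against 81.9 and 87.2 CPM and DOT1L at 54.3 and 70.2 against 69.8 and 84.1 CPM. Both genes are GC-rich, and their log2 values of 0.31 each became −0.26 and −0.21 with correction, with no call in either reading. The kinase CDK9 was at 34.9 and 43.7 against 51.2 and 49.0 CPM and was not called either.

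Of 13 tested genes for AF9 partners outside elongation, mostly Polycomb proteins, CBX8 and CBX2 rose in both readings and none fell. Both were low in level. Each count of this paragraph is to be read beside all genes tested, of which 5.06% fell and 8.02% rose without correction. With it 4.27% fell and 3.71% rose, so a single call in a list of this size is no result about the list. CBX8, which binds AF9, was at 1.96 and 2.77 CPM in the controls and 4.34 and 5.99 CPM in AF9 KD (log2 1.14 ± 0.29 and 0.86 ± 0.26). CBX2 was at 6.76 and 6.80 against 13.8 and 12.7 CPM (log2 0.97 ± 0.18 and 0.60 ± 0.17). These calls were thin. Without control 1 that of CBX8 was lost in both readings (0.90 and 0.69), and with correction it was also lost without control 2 (1.04) or AF9 KD 2 (0.69), and that of CBX2 without control 1 (0.69), control 2 (0.51) or AF9 KD 1 (0.45). Of 32 tested subunits of TFIID and the general transcription factors, TAF13 alone was called, at 13.9 and 12.5 against 8.36 and 6.51 CPM (log2 −0.83 ± 0.19 and −0.70 ± 0.16), and this call too was lost without control 1 (−0.75 and −0.65) and, with correction, without AF9 KD 2. Of 15 MLL1 and COMPASS genes, KMT2C, SETD1B and MEN1 were called without correction and none with it (without control 2, 5 rose without correction), and none of 13 tested HOXA cluster and cofactor genes was called in either reading, though 1 fell without AF9 KD 1 and without correction.

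Genes of mast cells, basophils and eosinophils fell together. In bulk RNA, fewer cells that express such genes and less RNA of them per cell cannot be told apart. Over all genes tested, 5.06% fell and 8.02% rose without and 4.27% and 3.71% with correction. These shares also stand beside the metallothionein, sterol, stress response and heat shock lists below. All these lists were chosen with earlier results of these data known. Of 22 listed genes of mast cells, basophils and eosinophils 14 were tested, 6 fell without and 8 with correction, and none rose. The median log2 fold change was −0.82 without and −0.72 with correction, and 12 of the 14 had both AF9 KD libraries below both controls. PRG2, eosinophil major basic protein, was at 575 and 723 CPM in the controls and 152 and 279 CPM in AF9 KD (log2 −1.59 ± 0.20 and −1.66 ± 0.19), with 54.5% of its words shared. KIT, the stem cell factor receptor, was at 827 and 560 against 278 and 437 CPM (log2 −0.96 ± 0.19 and −0.80 ± 0.19), and MS4A2, the beta chain of the IgE receptor, at 8.43 and 10.2 against 3.10 and 5.99 CPM (log2 −1.02 ± 0.27 and −0.82 ± 0.27).

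The libraries within a group lay far apart in several of these genes, AF9 KD 1 being lower than AF9 KD 2 in PRG2, KIT and MS4A2. With correction the call of KIT was lost without control 1 (−0.53) or AF9 KD 1 (−0.49), that of MS4A2 without control 2 (−0.65) or AF9 KD 1 (−0.38), and 5 of the 14 genes were called without control 1. The mast cell tryptases TPSAB1 and TPSB2, which share 81.3% and 81.8% of their words and cannot be told apart with certainty, were called only with correction. TPSAB1 was at 2.83 and 3.53 against 1.24 and 2.32 CPM (log2 −0.82 and −1.51) and TPSB2 at 4.65 and 7.39 against 1.16 and 4.49 CPM (log2 −1.07 and −1.63). FCER1A, the alpha chain of the IgE receptor, at 855 and 804 against 572 and 566 CPM, stayed short of the 1.5-fold limit (log2 −0.54 and −0.40). MS4A3, at 1510 and 1519 against 860 and 1056 CPM, was called only without correction (log2 −0.66 and −0.50), a call lost without AF9 KD 1 (−0.52).

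Metallothioneins fell with the zinc exporter SLC30A1. Of 11 tested genes of this list 8 fell in both readings and none rose, with a median log2 fold change of −1.25 without and −1.40 with correction. MT1E, at chr16:56625475-56627112, was at 33.8 and 36.0 CPM in the controls and 11.4 and 8.54 CPM in AF9 KD (log2 −1.81 ± 0.16 and −2.11 ± 0.15), and MT1X at 106 and 123 against 33.9 and 33.0 CPM (log2 −1.77 ± 0.11 and −1.88 ± 0.09). MT1G was at 37.9 and 45.3 against 13.5 and 12.4 CPM (log2 −1.68 and −1.82). The neighbouring genes share words (22.6% in MT1E, 54.0% in MT1X, 31.1% in MT1G), so reads could have been split among them. SLC30A1, a single-copy gene on chromosome 1, was at 37.9 and 32.7 against 12.1 and 11.9 CPM (log2 −1.56 ± 0.14 and −1.40 ± 0.12), MT2A at 108 and 168 against 59.4 and 81.0 CPM (log2 −0.97 and −1.09), and MT1A, the lowest of them, at 0.799 and 0.924 against 0.0774 and 0.0749 CPM, where each AF9 KD library held 1 count and no fold is given. MTF1, the metal-sensing transcription factor of these genes, was not called.

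Because these genes moved together, their promoters were searched (RefSeq, GRCh38.p14, 250 bases before to 50 bases after the start), and the 3 that held a match are shown. Capitals mark the core of the metal response element, searched as TGCACNC or TGCGCNC on both strands.
MT1X, chr16:56682220-56682519, plus strand: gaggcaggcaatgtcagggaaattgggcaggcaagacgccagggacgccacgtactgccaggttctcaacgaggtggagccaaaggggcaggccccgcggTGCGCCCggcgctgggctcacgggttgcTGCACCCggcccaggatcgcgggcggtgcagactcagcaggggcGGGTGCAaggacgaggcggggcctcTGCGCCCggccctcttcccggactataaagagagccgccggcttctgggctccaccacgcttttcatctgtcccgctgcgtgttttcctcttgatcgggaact
MT2A, chr16:56608334-56608633, plus strand: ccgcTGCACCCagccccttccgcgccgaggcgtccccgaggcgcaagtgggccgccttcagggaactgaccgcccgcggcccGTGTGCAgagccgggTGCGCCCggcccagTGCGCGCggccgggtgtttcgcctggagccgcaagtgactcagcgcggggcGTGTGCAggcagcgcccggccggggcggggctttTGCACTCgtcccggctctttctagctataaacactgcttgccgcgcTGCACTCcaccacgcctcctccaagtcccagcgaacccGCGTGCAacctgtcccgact
SLC30A1, chr1:211579112-211579411, minus strand: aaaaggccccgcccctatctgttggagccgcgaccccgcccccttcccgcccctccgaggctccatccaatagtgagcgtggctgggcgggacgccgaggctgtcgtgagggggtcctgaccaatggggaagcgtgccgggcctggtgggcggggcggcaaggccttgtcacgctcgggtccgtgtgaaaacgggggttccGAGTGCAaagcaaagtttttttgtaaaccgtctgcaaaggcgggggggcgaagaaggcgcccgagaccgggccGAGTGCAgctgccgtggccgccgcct
Of 6 tested members of the list with a RefSeq promoter, 4 of them called with correction, 3 held the core, with 4 matches in MT1X, 8 in MT2A and 2 in SLC30A1. The core occurred in 38.8% of the 9839 promoters of tested genes, so a match is common and only describes the letters.

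Genes of sterol synthesis fell, in both the early and the late part of the pathway. Of 22 tested genes 11 fell without and 14 with correction and none rose, with a median log2 fold change of −0.57 and −0.65. With 1 library left out, 10 to 12 fell without and 13 or 14 with correction. MSMO1, the C4 sterol methyl oxidase, was at 178 and 169 CPM in the controls and 49.9 and 55.7 CPM in AF9 KD (log2 −1.71 ± 0.10 and −1.53 ± 0.09). INSIG1, which retains the sterol sensor in the endoplasmic reticulum, was at 313 and 313 against 118 and 139 CPM (log2 −1.28 ± 0.10 and −1.18 ± 0.09), and HMGCS1, HMG-CoA synthase, at 492 and 476 against 193 and 222 CPM (log2 −1.22 ± 0.10 and −1.06 ± 0.10).

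Further enzymes followed the same course. IDI1, isopentenyl diphosphate isomerase, was at 392.1 and 372 against 192 and 158 CPM (log2 −1.13 and −1.01). SQLE, squalene epoxidase, was at 797 and 740 against 415 and 404 CPM (log2 −0.91 and −0.77). Of 17 members with a RefSeq promoter, 1 held TCACNCCAC, the letters of the sterol regulatory element used here, against 1.08% of all promoters. That member was SREBF2, which was not called, and none of the 10 members called with correction held the letters.

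Genes of the integrated stress response, which ATF4 drives when translation initiation is slowed or amino acids are short, also fell. Of 20 tested genes 7 fell without and 10 with correction and none rose, with a median log2 fold change of −0.44 and −0.56. CHAC1, a glutathione-degrading enzyme, was at 7.99 and 11.8 CPM in the controls and 1.70 and 5.32 CPM in AF9 KD (log2 −1.48 ± 0.36 and −2.005 ± 0.30). SLC7A11, the cystine transporter, was at 44.8 and 49.0 against 14.6 and 22.4 CPM (log2 −1.34 ± 0.17 and −1.10 ± 0.17), and DDIT4, an mTORC1 inhibitor, at 50.1 and 63.9 against 17.7 and 33.9 CPM (log2 −1.14 ± 0.22 and −1.45 ± 0.18). In all 3, AF9 KD 1 was the lowest library.

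PSAT1, of serine synthesis, was at 144 and 176 against 65.4 and 91.2 CPM (log2 −1.03 and −0.89) and DDIT3 (CHOP) at 27.1 and 29.9 against 14.6 and 15.9 CPM (log2 −0.90 and −0.88). ATF4 itself was at 441 and 475 against 314 and 346 CPM and was called only with correction (log2 −0.48 and −0.73), with 53.8% of its words shared with other transcripts. ATF3 was at 5.16 and 9.24 against 1.94 and 4.49 CPM (log2 −1.14 and −1.15), and its call was lost without control 2 (−0.68 and −0.69) and, without correction, also without AF9 KD 1 (−0.66). Of 16 members with a RefSeq promoter 4 held TGATGNAA, the letters searched for the C/EBP-ATF response element, against 1.68% of all promoters, and 2 of these 4 were called with correction. CHAC1, the member with the largest fall, is shown with its match in capitals, read on the other strand.
CHAC1, chr15:40953221-40953520, plus strand: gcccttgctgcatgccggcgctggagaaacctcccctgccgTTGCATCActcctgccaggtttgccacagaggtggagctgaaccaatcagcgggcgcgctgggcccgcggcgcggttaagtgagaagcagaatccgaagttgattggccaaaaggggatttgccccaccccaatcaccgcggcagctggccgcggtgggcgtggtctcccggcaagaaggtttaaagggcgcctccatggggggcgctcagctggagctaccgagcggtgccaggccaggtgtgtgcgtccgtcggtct

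Heat shock chaperones moved the other way. Of 14 tested genes 3 rose without and 4 with correction and none fell, with a median log2 fold change of 0.37 and 0.42. HSPA1B was at 2.91 and 3.28 CPM in the controls and 10.1 and 11.4 CPM in AF9 KD (log2 1.80 ± 0.22 and 1.48 ± 0.19) and HSPA1A at 1.53 and 1.76 against 5.34 and 5.24 CPM (log2 1.69 ± 0.28 and 1.33 ± 0.27). Both encode the inducible HSP70 and share 74.5% and 76.9% of their words. HSPH1, an HSP70 co-chaperone, was at 212 and 210 against 357 and 257 CPM (log2 0.54 and 0.73) and HSP90AA1, inducible HSP90, at 1395 and 1349 against 2422 and 1543 CPM (log2 0.53 and 0.61). These 2 were called only with correction and stood highest in AF9 KD 1, without which both calls were lost (0.53 and 0.27) and 2 of the 14 genes rose. Without AF9 KD 2, 6 rose in either reading. HSPB1, a small heat shock protein with 63.7% GC, was called only without correction (log2 1.09 and 0.54).

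**Figure D4:**
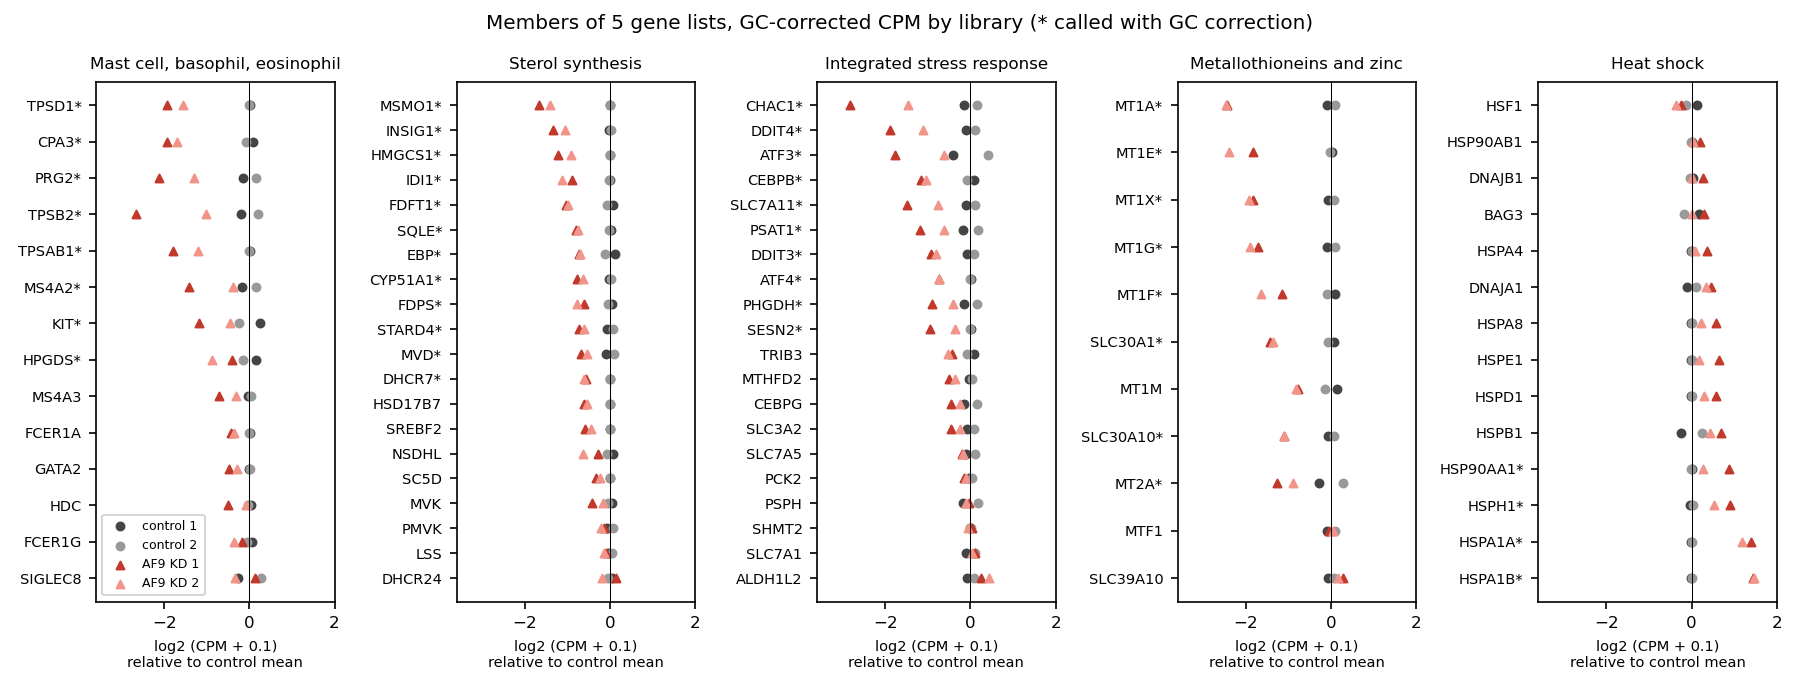
GC-corrected log2 (CPM + 0.1) of tested members of 5 lists relative to the control mean (horizontal axis), in control (circles) and AF9 KD (triangles) libraries, with a star at genes called with correction. The called genes of the first 4 lists have their AF9 KD libraries on the left and those of the heat shock list on the right.

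Globins were divided. The fetal globin HBG2 was at 4834 and 4869 CPM in the controls and 3544 and 2845 CPM in AF9 KD (log2 −0.60 ± 0.12 and −0.59 ± 0.11), and HBG1 at 3073 and 3161 against 2220 and 1880 CPM (log2 −0.60 ± 0.11 and −0.54 ± 0.10), the latter called only without correction. Both sat at the 1.5-fold limit, and the call of HBG2 was lost in both readings without control 1, control 2 or AF9 KD 2 (−0.61, −0.60 and −0.45 without correction; −0.60, −0.58 and −0.43 with it), as was that of HBG1 without correction (−0.63, −0.58 and −0.49). They share 94.3% (HBG1) and 82.6% (HBG2) of their words. The alpha globins HBA1 and HBA2, of 67.3% and 67.0% GC, went the other way without correction. HBA1 was at 72.1 and 116 against 234 and 182 CPM (log2 1.15 ± 0.17) and HBA2 at 40.0 and 65.9 against 147 and 98.3 CPM (log2 1.22 ± 0.20), but neither was called with correction (log2 0.43 and 0.52; edgeR adjusted p = 0.071 and 0.083). Over all genes tested, 5.06% fell and 8.02% rose without and 4.27% and 3.71% with correction. Of the 27 tested globin and erythroid genes 3 fell and 5 rose without correction, and 3 fell and 1 rose with it. That balance turned on single libraries. With correction, 5 fell and none rose without AF9 KD 1, whereas none fell and 5 rose without AF9 KD 2, and without correction none fell without control 1, control 2 or AF9 KD 2. The transferrin receptor TFRC was the rise with correction, at 480 and 477 against 857 and 573 CPM (log2 0.71 ± 0.13), lost without AF9 KD 1 (0.43).

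The other blood cell lists are set beside all genes tested, of which 5.06% fell and 8.02% rose without and 4.27% and 3.71% with correction. Of 22 tested megakaryocyte and platelet genes 4 fell and 2 rose without correction, and 2 fell and 1 rose with it. With correction 6 fell without AF9 KD 2, and 1 without control 2 or AF9 KD 1. PLEK, pleckstrin, the main protein kinase C substrate of platelets, was at 1547 and 1409 against 788 and 747 CPM (log2 −0.95 ± 0.10 and −0.88 ± 0.09; edgeR adjusted p = 5.4e-05 and 4.0e-05). The stem cell transcription factors held 3 rises of 19 tested genes without correction (1 without control 1) and 1 with it (2 without AF9 KD 2), ZFPM1 (FOG1), the cofactor of GATA1, at 1.09 and 1.68 against 6.12 and 6.82 CPM (log2 2.23 ± 0.29 and 1.43 ± 0.27). CEBPA, at 0.65 and 0.92 against 3.02 and 2.32 CPM, was called only without correction (log2 1.76 ± 0.39 and 1.08 ± 0.40), a call lost without control 1 (1.52). FLI1, a megakaryocyte factor, was at 583 and 530 against 383 and 364 CPM, just short of the fold limit (log2 −0.57 ± 0.10 and −0.49 ± 0.08). Of 9 tested fibroblast and endothelial genes KDR, the VEGF receptor, fell from 180 and 143 to 73.1 and 72.6 CPM (log2 −1.15 ± 0.11 and −1.08 ± 0.10).

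Expression is given here for the genes whose chromatin tracks in HEL cells the study shows. GLUL, glutamine synthetase, was at 1413 and 1527 against 841 and 982 CPM (log2 −0.69 ± 0.11 and −0.63 ± 0.10), near the fold limit, and its call was lost without AF9 KD 1 (−0.58 and −0.52) and, with correction, without control 2 (−0.56). UBASH3A, a tyrosine phosphatase family member, rose from 6.54 and 7.39 to 14.5 and 16.0 CPM (log2 1.13 ± 0.17 and 1.00 ± 0.15). TSPAN32, a tetraspanin of 64.0% GC, was at 16.6 and 20.6 against 25.4 and 37.0 CPM and was called only without correction (log2 0.75 ± 0.18 and 0.15 ± 0.12), a call lost without AF9 KD 2 (0.46). ANXA1, annexin A1, at 50.5 and 40.7 against 32.9 and 25.2 CPM, was likewise called only without it (log2 −0.65 ± 0.15 and −0.44 ± 0.12) and lost without control 1 (−0.49) or AF9 KD 2 (−0.47). GATA2, at 495 and 580 against 483 and 633 CPM, was not called in either reading (log2 0.05 ± 0.13 and −0.38 ± 0.09), and MYC lay between 376 and 391.5 CPM in all 4 libraries.

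The lists of metabolism and signalling are also read beside all genes tested, of which 5.06% fell and 8.02% rose without correction. With correction these shares were 4.27% and 3.71%, so list counts near them say little about a list. Of 29 tested glycolysis and hypoxia genes 7 fell with correction and none rose, against 4 and 1 without. SLC2A3, a neuronal-type glucose transporter, went from 383 and 378 to 170 and 166 CPM (log2 −1.18 ± 0.09 and −1.09 ± 0.07) and P4HA1, collagen prolyl hydroxylase, from 387 and 364 to 202 and 181 CPM (log2 −0.97 ± 0.10 and −0.81 ± 0.08). With correction, 4 of the 29 fell without AF9 KD 2, and without correction 9 fell without AF9 KD 1. Of 20 tested immediate early genes 2 fell and 3 rose without correction and 5 fell and none rose with it, while the median log2 fold change was below 0 in both readings (−0.23 and −0.30). Leaving out any 1 library gave 1 rise with correction. JUND, of 69.9% GC, was at 24.4 and 27.9 against 25.01 and 28.7 CPM, with a log2 of 0.04 ± 0.13 that became −0.87 ± 0.12 and a call with correction. Of 25 tested interferon-stimulated genes 2 fell without and 3 with correction and none rose. Without AF9 KD 2, 4 fell without correction. B2M, the light chain of MHC class I, was at 1491 and 1422 against 879 and 926 CPM (log2 −0.69 ± 0.10 and −0.54 ± 0.09) and was called only without correction. Of 24 tested integrin and adhesion genes 5 fell and 5 rose without correction, and 2 fell and 3 rose with it. Among them ITGAV, an integrin alpha chain, fell (log2 −1.35 ± 0.12 and −1.13 ± 0.11), whereas SELPLG, the P-selectin ligand (1.09 ± 0.15 and 0.80 ± 0.11), and ICAM1 (1.06 ± 0.16 and 0.89 ± 0.13) rose. Of 17 tested unfolded protein response and chaperone genes 2 fell and 1 rose without correction, and 1 fell and 1 rose with it. The fall in both readings was DNAJB9, a chaperone of the endoplasmic reticulum, which went from 28.4 and 24.9 to 10.8 and 11.0 CPM (log2 −1.29 ± 0.15 and −1.09 ± 0.12).

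Lists of housekeeping genes are read beside all genes tested, of which 4.27% fell and 3.71% rose with correction, and 5.06% and 8.02% without. Of 35 tested mitosis genes 3 fell without and none with correction, although 33 and 31 of them had a log2 fold change below 0 and the median was −0.36 and −0.28. Without AF9 KD 1, 7 fell without and 5 with correction, and without AF9 KD 2, 1 fell in each reading. TOP2A, at 1727 and 1655 against 1233 and 1138 CPM, is an example (log2 −0.51 ± 0.10 and −0.33 ± 0.08). With correction, none of 31 proteasome, 34 splicing factor and 41 DNA replication genes was called. Of 75 ribosomal protein genes 2 rose and none fell, of 73 nuclear-encoded respiratory chain genes 1 fell and 2 rose, and of 34 lysosome genes 1 fell and 2 rose, where 7 lysosome genes had risen without correction. Of 37 tested MYC and ribosome biogenesis genes 1 fell and 3 rose with correction, against 1 and 7 without. These counts moved with single libraries. With correction, no ribosomal protein gene rose without control 1 or AF9 KD 2, no respiratory chain gene rose without control 1 and 2 fell without control 2, 1 lysosome gene rose without control 1, and the rises of the MYC list ranged from 1 without AF9 KD 1 to 5 without AF9 KD 2. Where none was called, 2 splicing factor genes rose without AF9 KD 2, and 1 proteasome and 1 replication gene did so too. Without correction, 3 lysosome genes rose without control 1 and 4 without AF9 KD 2.

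**Figure D5:**
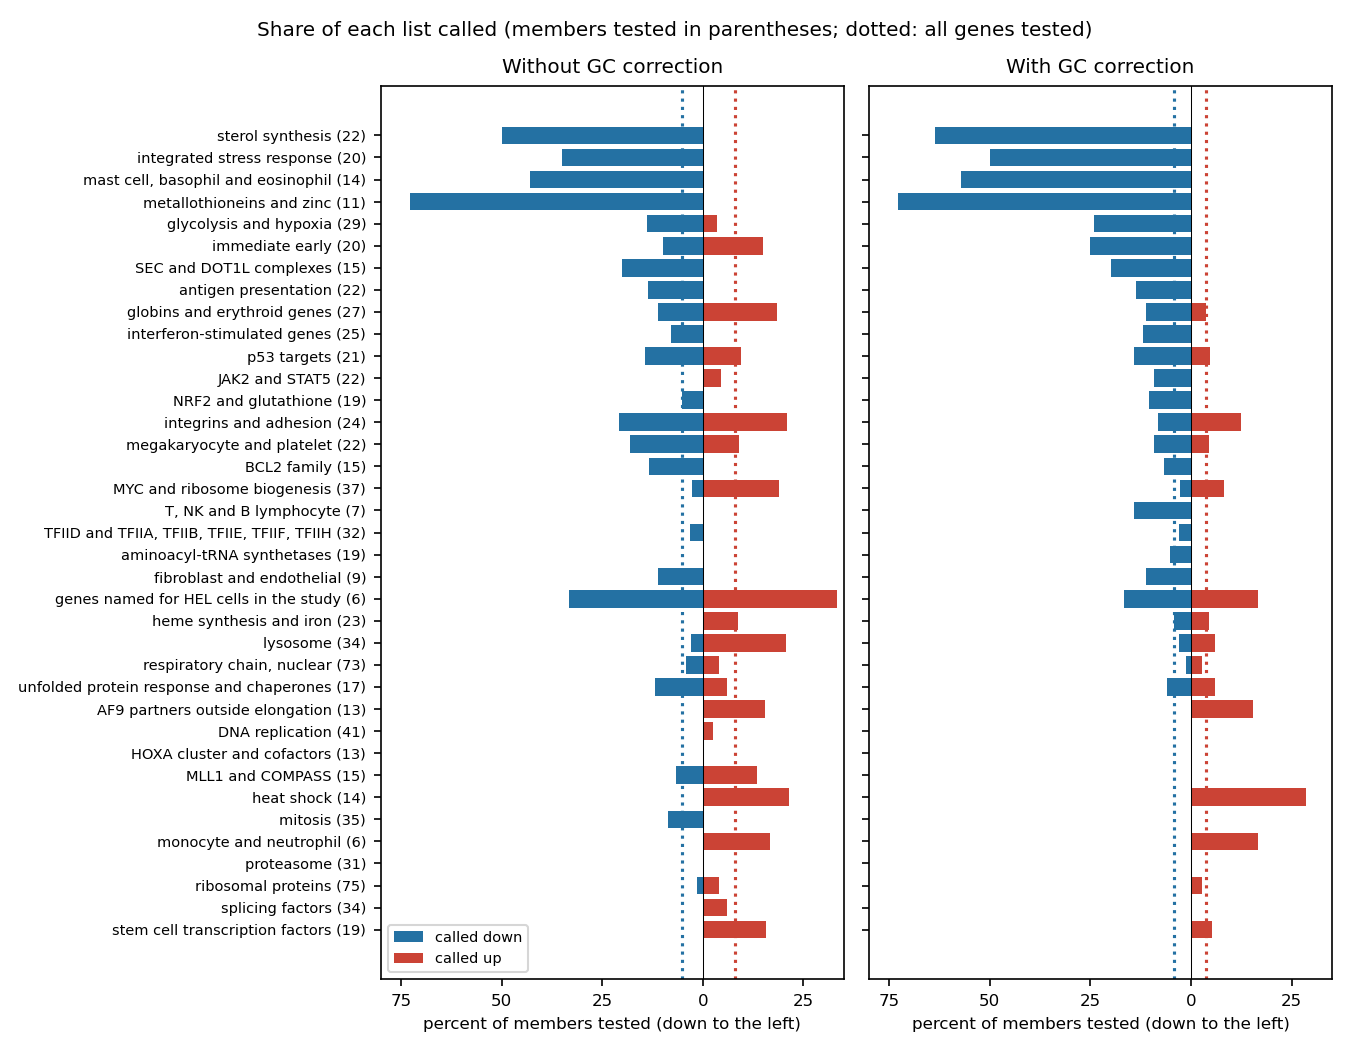
Percent of the tested members of each list called down (bars to the left) and up (bars to the right), without (left) and with (right) GC correction, with the number tested in parentheses and dotted lines at the share of all genes tested. Metallothioneins, sterol synthesis, mast cell and stress response genes have the longest bars to the left in the right panel.

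Among protein-coding genes with at least 10 CPM in the higher group, the 5 largest changes called only without correction were rises of genes with 65.6% to 68.1% GC. PRSS57, a serine protease of granulocytes, was at 3.27 and 6.63 CPM in the controls and 9.76 and 16.8 CPM in AF9 KD (log2 1.44 ± 0.30 without and 0.66 ± 0.23 with correction), and MFSD3, ZDHHC8, TMUB1 and KIFC2 had log2 values of 1.25 to 1.33 without and 0.45 to 0.57 with correction. Under the same limit, the 5 largest called only with correction were falls, of genes with 60.6% to 68.8% GC. UBALD2 was at 40.0 and 44.4 against 27.1 and 30.9 CPM (log2 −0.54 ± 0.12 and −1.16 ± 0.10), and HES6, a transcriptional repressor, at 19.9 and 27.3 against 17.6 and 20.6 CPM, where the groups overlap before correction (log2 −0.30 ± 0.16 and −1.14 ± 0.11). MKNK2 (−1.08), NT5M (−0.998) and DOK3 (−0.97) followed, with log2 values of −0.36 to −0.56 without correction. The correction lowers GC-rich genes most, so the high GC content of both sets follows from the method.

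The sign itself changed for 2354 genes, most of them near 0. Among those called in the reading without correction this concerned 27 rises and no fall, and with correction none of them lay below −0.18. All 27 were genes of 64.7% to 70.9% GC, which also follows from the method. NR2F6, a nuclear receptor, was at 8.72 and 9.83 CPM in the controls and 17.97 and 16.8 CPM in AF9 KD (log2 0.91 ± 0.16 and −0.05 ± 0.17). CKB, brain-type creatine kinase, was at 63.7 and 85.2 against 139 and 133 CPM (log2 0.87 ± 0.12 and −0.01 ± 0.11). Both are separated between the groups in CPM, and nearly the whole difference was taken up by the GC trend.

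The seed of the guide of AF9 shRNA #1 was read against the genes as a description. Of 11509 tested genes with a 3′ UTR 3374 (29.3%) held at least 1 match to the 7-base seed site. Without correction the median log2 fold change was 0.07 in the 8135 genes with no site, −0.08 with 1 site, −0.14 with 2 sites and −0.18 with 3 or more. The site is rich in A and T, and in quartiles of exon GC content these differences were small. In the lowest quartile the medians were −0.18, −0.19, −0.19 and −0.21, and in the second −0.09, −0.12, −0.13 and −0.10. With correction they were between −0.002 and 0.009 over all genes. In the lowest quartile 3.31%, 4.23%, 4.46% and 6.08% of genes with 0, 1, 2 and 3 or more sites fell with correction. The last class had longer 3′ UTRs than genes with no site (median 5132 against 1254 bases). In the second quartile the shares were 4.49%, 4.34%, 5.15% and 1.64%, the last being 2 of 122 genes. No test was made of these differences.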

How the data were processed

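Poly(A)-selected, strand-specific RNA-seq libraries of 2 control and 2 AF9 KD samples were used. Per the labels, the authors trimmed reads with fastp 0.13.1, aligned them to hg38 with HISAT2 2.1.0 and counted with featureCounts 1.6.1 by strand, and deposited raw counts per gene symbol. The annotation behind the symbols is not given in the sources used here, and 92.3% of the symbols matched GENCODE release 44 or RefSeq names, from which exon GC content and lengths were taken.

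Genes averaging 1 TPM or more (1 CPM where no length was known) were tested in edgeR 4.0.16 (R 4.3.3) with TMM factors and the quasi-likelihood test. For the GC correction, lowess trends (span 0.3) of log2 CPM (prior count 2) relative to the mean of the libraries were added to the offsets. Genes with no GC value received no correction. The script was tested on simulated data. The mitochondrially encoded genes were not analysed here.

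Named genes were MLLT3, the 10 largest falls and rises among protein-coding genes called in both readings with at least 10 CPM in the higher group and the groups apart, up to 4 members of each list, all SEC, DOT1L and study genes, up to 5 of the largest calls made in only 1 reading, and reversals. Further members (SLC30A1, MT2A, TPSAB1, TPSB2, FCER1A, MS4A3, SQLE, PSAT1, DDIT3, ATF4, HSPH1, HSP90AA1, HSPB1, HBA1, HBA2, TFRC, CEBPA, JUND) were chosen after their values were seen. Some genes that the rule or the lists hold are not reported here, though counts over lists include them. Members and lists were chosen with earlier results of these data known. Shared words are the 31-base words of a canonical transcript found in other genes' transcripts. No molecular identifiers were used, and replicate libraries differed by more than counting error. Standard errors were computed as the absolute log2 fold change divided by the square root of the F statistic of the quasi-likelihood test. Alternatives were the replicate block, size factors of DESeq2 1.42.0, total counts, filters, thresholds, the DESeq2 Wald test, each library left out, other GC measures and, chosen after seeing the data, the newer quasi-likelihood method.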

Additional observations from a re-analysis of the deposited data

How the results depend on the processing

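Of the numbers of genes called, those moved by more than 1.5 times were as follows. Without GC correction, total counts gave 438 falls. With no fold threshold 1940 genes fell and 1922 rose, and at 2-fold 138 fell and 372 rose. With GC correction, no fold threshold gave 1903 falls and 1624 rises, 2-fold 146 and 139, a minimum of 5 TPM gave 325 rises and the DESeq2 Wald test 291 rises. With 1 library left out, where the lone library of a group is assumed to vary like the other group, 495 to 796 genes fell and 557 to 1314 rose without correction, and 459 to 819 fell and 297 to 685 rose with it, the fewest rises coming without control 1. No gene changed from a fall to a rise under any of these settings.

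The replicate numbers only name the libraries. Over the genes tested, deviations of control 1 and AF9 KD 1 from their group means had a correlation of 0.16 without and 0.04 with correction. With 2 libraries a group, the pair numbered 2 only mirrors this pair. The replicate block gave 737 falls and 1220 rises without and 610 falls and 566 rises with correction. Thus the paired fit moved no count by over 1.5 times.

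Values near 0 changed sign. CKB became 0.088 with no filter, 0.074 with a lowess span of 0.6, 0.32 with the GC content of the canonical transcript and 0.018 with GC and length trends, and NR2F6 became 0.066 with no filter and 0.047 with a span of 0.6. With 1 library left out, the value without correction ranged from −0.15 to 0.237 for GATA2 and from −0.058 to 0.137 for JUND, and that with correction from −0.20 to 0.163 for CKB, from −0.249 to 0.158 for NR2F6 and from −0.009 to 0.298 for TSPAN32. The cause was not tested. With 2 libraries a group and 12278989 to 14232408 counts a library, the median standard error was 0.133 without and 0.112 with correction and was larger for low genes (0.78 for MT1A), and effects of an shRNA and of the loss of AF9 cannot be told apart.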
